A study of Mus musculus with 15 samples.

Results

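Hox genes encode homeodomain transcription factors that give embryonic tissues their position from head to tail, and they were compared here between abdominal and thoracic aorta of mice on 2 diets. All symbols made of Hox, a cluster letter from a to d and a paralog number were taken, each with its probe set that names exactly 1 gene and is brightest by the mean over 15 arrays. This gave 36 Hox genes among 22180 genes in all, of 39 that RefSeq lists, and the other 3 were not analysed here. Mice of the inbred strain DBA/2NCrl entered the experiment at 8 weeks of age and were then given 5 days of a high-phosphate diet (HPD, phosphorus at 20.2 g per kg) or of standard chow (SCD, phosphorus at 7 g per kg). The 4 groups were abdominal aorta on HPD (4 arrays), abdominal aorta on SCD (4 arrays), thoracic aorta on HPD (3 arrays) and thoracic aorta on SCD (4 arrays), and no group carried a mutation or transgene per the labels. The titles call the arrays biological replicates, and the labels leave unsaid if a mouse gave 1 segment or both.

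Mouse Hox genes lie in 4 clusters, Hoxa, Hoxb, Hoxc and Hoxd, and genes of 1 cluster share a transcribed strand. Genes with low paralog numbers sit at the 3' end, are switched on early and reach far toward the head, whereas high numbers are switched on later and stay nearer the tail. Adult smooth muscle cells, fibroblasts and fat cells keep part of the pattern of their place of origin. The proteins bind DNA with Pbx and Meis partners, retinoic acid activates the 3' genes, and Polycomb and Trithorax proteins hold genes off or on. The Hoxa cluster on chromosome 6 had 9 members, Hoxb on chromosome 11 had 10, Hoxc on chromosome 15 had 9 and Hoxd on chromosome 2 had 8.

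The upstream windows of 3 members that differed between segments are shown, since they stand for both directions of the difference. Each is the 250 bases before the gene's start, read 5' to 3' on the gene's strand, from RefSeq on GRCm38.p6. Hoxa2, a gene of hindbrain and neural crest patterning that was lower in abdominal aorta, has the window chr6:52164832-52165081 on the minus strand. Hoxb4, known for the self-renewal of blood stem cells and lower in abdominal aorta, has chr11:96318017-96318266 on the plus strand. Hoxa9, a gene of posterior identity and of blood and endothelial progenitors that was higher in abdominal aorta, has chr6:52227371-52227620 on the minus strand. Capitals mark matches to 4 motifs searched on both strands, the homeodomain core TAATTA, the joint Pbx and Hox motif TGATTNAT, the Meis core TGACAG and the Cdx core CAATAAA.
Hoxa2: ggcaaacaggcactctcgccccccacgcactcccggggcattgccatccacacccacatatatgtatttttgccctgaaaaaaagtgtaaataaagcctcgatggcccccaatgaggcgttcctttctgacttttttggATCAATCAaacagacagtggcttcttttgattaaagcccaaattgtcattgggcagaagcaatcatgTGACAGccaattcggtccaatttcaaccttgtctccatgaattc
Hoxb4: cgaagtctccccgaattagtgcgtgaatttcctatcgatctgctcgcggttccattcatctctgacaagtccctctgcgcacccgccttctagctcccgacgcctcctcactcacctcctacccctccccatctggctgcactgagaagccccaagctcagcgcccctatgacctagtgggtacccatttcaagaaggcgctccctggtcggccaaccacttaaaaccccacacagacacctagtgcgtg
Hoxa9: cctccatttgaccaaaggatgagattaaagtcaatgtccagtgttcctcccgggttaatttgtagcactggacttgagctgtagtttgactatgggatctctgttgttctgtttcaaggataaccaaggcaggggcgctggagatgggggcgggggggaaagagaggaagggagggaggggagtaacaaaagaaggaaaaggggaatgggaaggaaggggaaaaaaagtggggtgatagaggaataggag

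Hoxa2 held 1 match to TGATTNAT, printed on its reverse strand as ATCAATCA, and 1 match to TGACAG, while Hoxb4 and Hoxa9 held none of the 4 motifs in these windows. Windows were given for 20 of the 36 members, 22 in all because some genes have several starts. TAATTA lay in 2 of the 22 member windows (both of Hoxd11) and in 4.84% of all 32851 windows. TGATTNAT lay in 2 member windows (Hoxa2 and Hoxd11) and in 2.82% of all. TGACAG lay in 2 (Hoxa2 and Hoxa3) and in 15.9% of all, and CAATAAA in 1 (Hoxb8) and in 4.2% of all. No matches of different motifs overlapped. The median GC content was 59.2% in the member windows, against 52.4% in all windows. These are matches of letters and not measured binding.

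The clusters also hold microRNAs, and 4 microRNA genes of the clusters were on the array table. Their mature sequences from RefSeq (GRCm38.p6) follow with the seed, bases 2 to 8, in capitals, because the seed decides which messages a microRNA can pair with. miR-10b lies at chr2:74726074-74726096 in the Hoxd cluster. miR-196a is made from Mir196a-1 at chr11:96265187-96265208 in the Hoxb cluster and from Mir196a-2 at chr15:102973365-102973386 in the Hoxc cluster, and it is known to cut Hoxb8 messenger RNA in mouse embryos. miR-615 lies at chr15:103014969-103014990 in the Hoxc cluster, and all 4 sites are on the plus strand.
mmu-miR-10b-5p: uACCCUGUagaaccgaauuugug
mmu-miR-196a-5p: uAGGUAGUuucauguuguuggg
mmu-miR-615-3p: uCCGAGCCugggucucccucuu

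The 15 arrays were alike in scale, with array medians of 5.778 to 5.84 and correlations within groups of 0.9739 to 0.9885 across probe sets. The labelled tissue showed the smooth muscle genes Myh11 and Acta2 at means of 11.013 and 11.591 over the 15 arrays. The mean of the smooth muscle marker list was 8.132 to 8.831 in abdominal arrays and 9.02 to 9.366 in thoracic arrays, with 9 of 9 markers lower in abdominal aorta. Sympathetic and chromaffin markers were higher in 9 of 10 cases, with list means of 7.915 to 9.316 in abdominal and 5.74 to 6.849 in thoracic arrays. Cardiac muscle markers were lower in 8 of 9 cases (6.064 to 6.332 abdominal, 8.108 to 8.958 thoracic) and mesothelial markers in 5 of 5 (5.173 to 6.144 abdominal, 6.142 to 7.03 thoracic). In 5 abdominal arrays (HPD arrays 1, 2 and 4 and SCD arrays 2 and 4) the T and NK cell list averaged 7.558 to 8.393, and it was at most 6.038 in all others. The hepatocyte list was high in abdominal HPD arrays 3 and 4 (8.447 and 10.515) and thoracic SCD array 4 (6.872). The skeletal muscle list was high in abdominal HPD arrays 1 and 4 (7.087 and 7.431) and thoracic HPD array 3 (7.629). It was also high in abdominal SCD arrays 1, 2 and 4 (7.943, 6.787 and 7.561), and at most 6.404 in all others. Of its markers 0 of 8 were called between segments, and its part in the Hox values was not tested. The samples are pieces of whole tissue, so fewer cells of a type and less RNA per cell cannot be told apart.

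Abdominal aorta had higher signal for a block of central and posterior Hox genes, Hoxc6, Hoxc8, Hoxc9 and Hoxc10 of the Hoxc cluster and Hoxa9 of the Hoxa cluster, on either diet. It had lower signal for 5 genes of paralog groups 2, 4 and 5, namely Hoxa2, Hoxa4, Hoxa5, Hoxb2 and Hoxb4. Averaged over the diets, 13 of 36 Hox genes differed between segments, 8 higher and 5 lower in abdominal aorta. Differences are abdominal minus thoracic on the log2 scale of the deposited intensities, from limma, and a called gene is one whose p, adjusted over all 22180 genes by the Benjamini-Hochberg method, was under 0.05. Of all genes 22% were called, 10.3% higher and 11.7% lower. The median absolute difference was 0.15 over the 36 Hox genes and 0.12 over all genes. The remaining paragraphs give the signal of each called gene by array, and levels of different genes are not set against each other because each probe set has its own response.

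By cluster, Hoxc had 5 of 9 members higher and 0 lower in abdominal aorta, with a median difference of 0.27. Hoxd had 2 of 8 higher and 0 lower, with a median of -0.02. Hoxa had 1 of 9 higher and 3 lower, with a median of -0.14. Hoxb had 0 of 10 higher and 2 lower, with a median of -0.12, and 9 of its 10 differences were below 0 whether called or not. The median over all genes was also below 0, at -0.04. By paralog number, the anterior genes (1 to 3) had 0 of 7 higher and 2 lower, and all 7 differences were below 0. Hoxd1 (-0.03) and Hoxd3 (-0.02) nevertheless lay above the median of all genes, and on SCD alone 2 of the 7 were above 0. Among the anterior genes Hoxa2 alone was above the percentile of dim probe sets described further on. The central genes (4 to 8) had 4 of 14 higher and 3 lower. The posterior genes (9 to 13) had 4 of 15 higher and 0 lower. Differences between clusters and between paralogs were not tested.

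**Figure D1:**
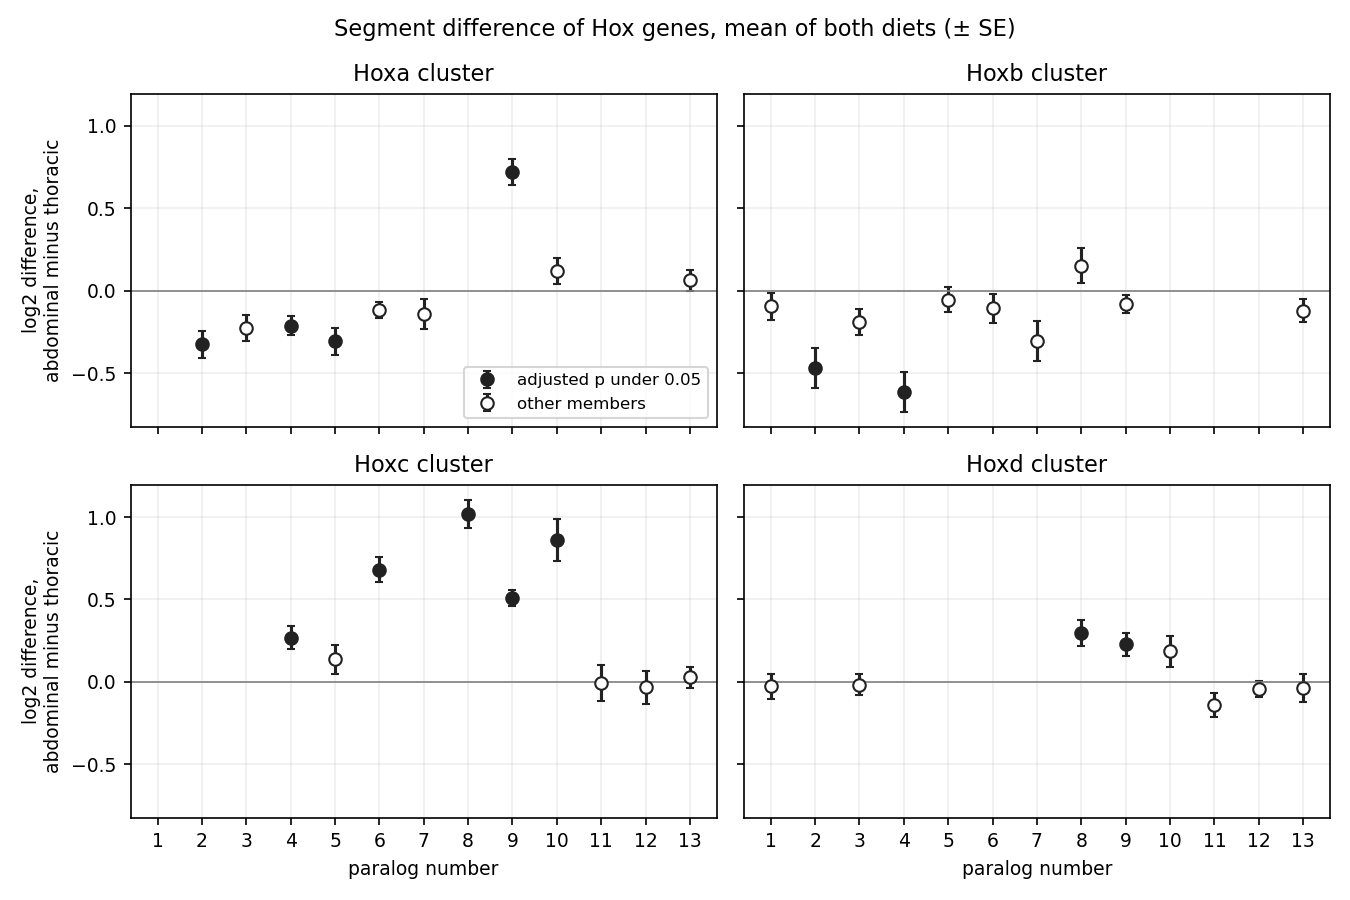
Segment difference (abdominal minus thoracic, log2 scale, mean of both diets, bars 1 SE) of the 36 Hox genes by paralog number, with a panel for each cluster and filled points at an adjusted p under 0.05. Filled points above 0 include Hoxc8 (1.02), Hoxc10 (0.86) and Hoxa9 (0.72), and filled points below 0 include Hoxb4 (-0.61) and Hoxb2 (-0.47).

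Hoxc8, a central gene of mid-trunk vertebrae and spinal motor neurons, read 7.94, 7.89, 8.32 and 7.94 in abdominal aorta on HPD and 8.41, 8.70, 8.60 and 8.46 in abdominal aorta on SCD. Thoracic aorta read 7.14, 7.39 and 7.10 on HPD and 7.36, 7.56, 7.28 and 7.09 on SCD. All 8 abdominal arrays lay above all 7 thoracic arrays. The difference was 1.02 (SE 0.0863, limma adjusted p = 2.74e-06), or 2.02-fold.

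Hoxc10, a posterior gene of lumbar and hindlimb patterning that also marks subcutaneous white fat, read 6.42, 5.84, 6.27 and 5.88 in abdominal aorta on HPD and 6.69, 6.31, 6.12 and 6.13 in abdominal aorta on SCD. Thoracic aorta read 5.35, 5.38 and 5.30 on HPD and 5.12, 5.03, 5.55 and 5.72 on SCD. The segments did not overlap, although thoracic SCD array 4 came close to the lowest abdominal array. The difference was 0.86 (SE 0.127, limma adjusted p = 0.000274), and no fold is given because both thoracic groups lay below the percentile of dim probe sets described further on.

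Hoxa9 read 6.98, 6.71, 7.07 and 6.60 in abdominal aorta on HPD and 7.06, 7.36, 7.16 and 7.01 in abdominal aorta on SCD. Thoracic aorta read 6.31, 6.22 and 6.27 on HPD and 6.31, 6.39, 6.12 and 6.27 on SCD. The abdominal arrays were again all above the thoracic ones. The difference was 0.72 (SE 0.079, limma adjusted p = 2.39e-05), or 1.65-fold.

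Hoxc6, a gene active from the forelimb level into the thorax of the embryo, read 7.08, 6.96, 7.16 and 6.97 in abdominal aorta on HPD and 7.46, 7.32, 7.22 and 7.01 in abdominal aorta on SCD. Thoracic aorta read 6.26, 6.31 and 6.47 on HPD and 6.73, 6.63, 6.34 and 6.64 on SCD. No thoracic array reached the lowest abdominal one. The difference was 0.68 (SE 0.0769, limma adjusted p = 3.04e-05), or 1.6-fold.

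Hoxc9, which sets the thoracic identity of spinal motor neurons, read 6.40, 6.46, 6.43 and 6.50 in abdominal aorta on HPD and 6.64, 6.58, 6.53 and 6.54 in abdominal aorta on SCD. Thoracic aorta read 5.997, 5.917 and 6.127 on HPD and 5.90, 5.96, 6.04 and 6.06 on SCD. The arrays within a segment lay close together and the segments were apart. The difference was 0.51 (SE 0.0505, limma adjusted p = 1e-05).

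These 5 genes were the members with all 8 abdominal arrays above all 7 thoracic arrays, which held for 2.66% of all genes. No Hox gene had all abdominal arrays below all thoracic arrays, which held for 1.45% of all genes. The same 5 genes were called, each higher, on each diet alone, against 3.67% of all genes called in the same direction on both. Without the 5 arrays high in T and NK cell markers they were the 5 Hox genes still called in the mean of both diets, with differences of 1.15 for Hoxc8, 0.99 for Hoxc10, 0.82 for Hoxa9, 0.78 for Hoxc6 and 0.51 for Hoxc9 and adjusted p-values up to 0.0064. On HPD alone 3 of the 5 were called without those arrays, while Hoxc10 (0.92, adjusted p = 0.147) and Hoxc9 (0.42, adjusted p = 0.183) were not. Those fits keep 1 abdominal HPD array, array 3, which stood apart from its group for Hoxc8. The sympathetic and chromaffin list was higher beside these 5 genes. The mean of 2 lymph node vessel markers was also higher, at 7.457 to 9.628 in abdominal and 6.126 to 6.392 in thoracic arrays, and it was 9.035 and 9.13 in HPD array 3 and SCD array 3 of abdominal aorta, which are not among the 5 arrays. Of these 2 markers Glycam1 was called (5.61, limma adjusted p = 1.09e-06) and Madcam1 was not (0.21, adjusted p = 0.195). The part of either list in these differences was not tested.

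**Figure D2:**
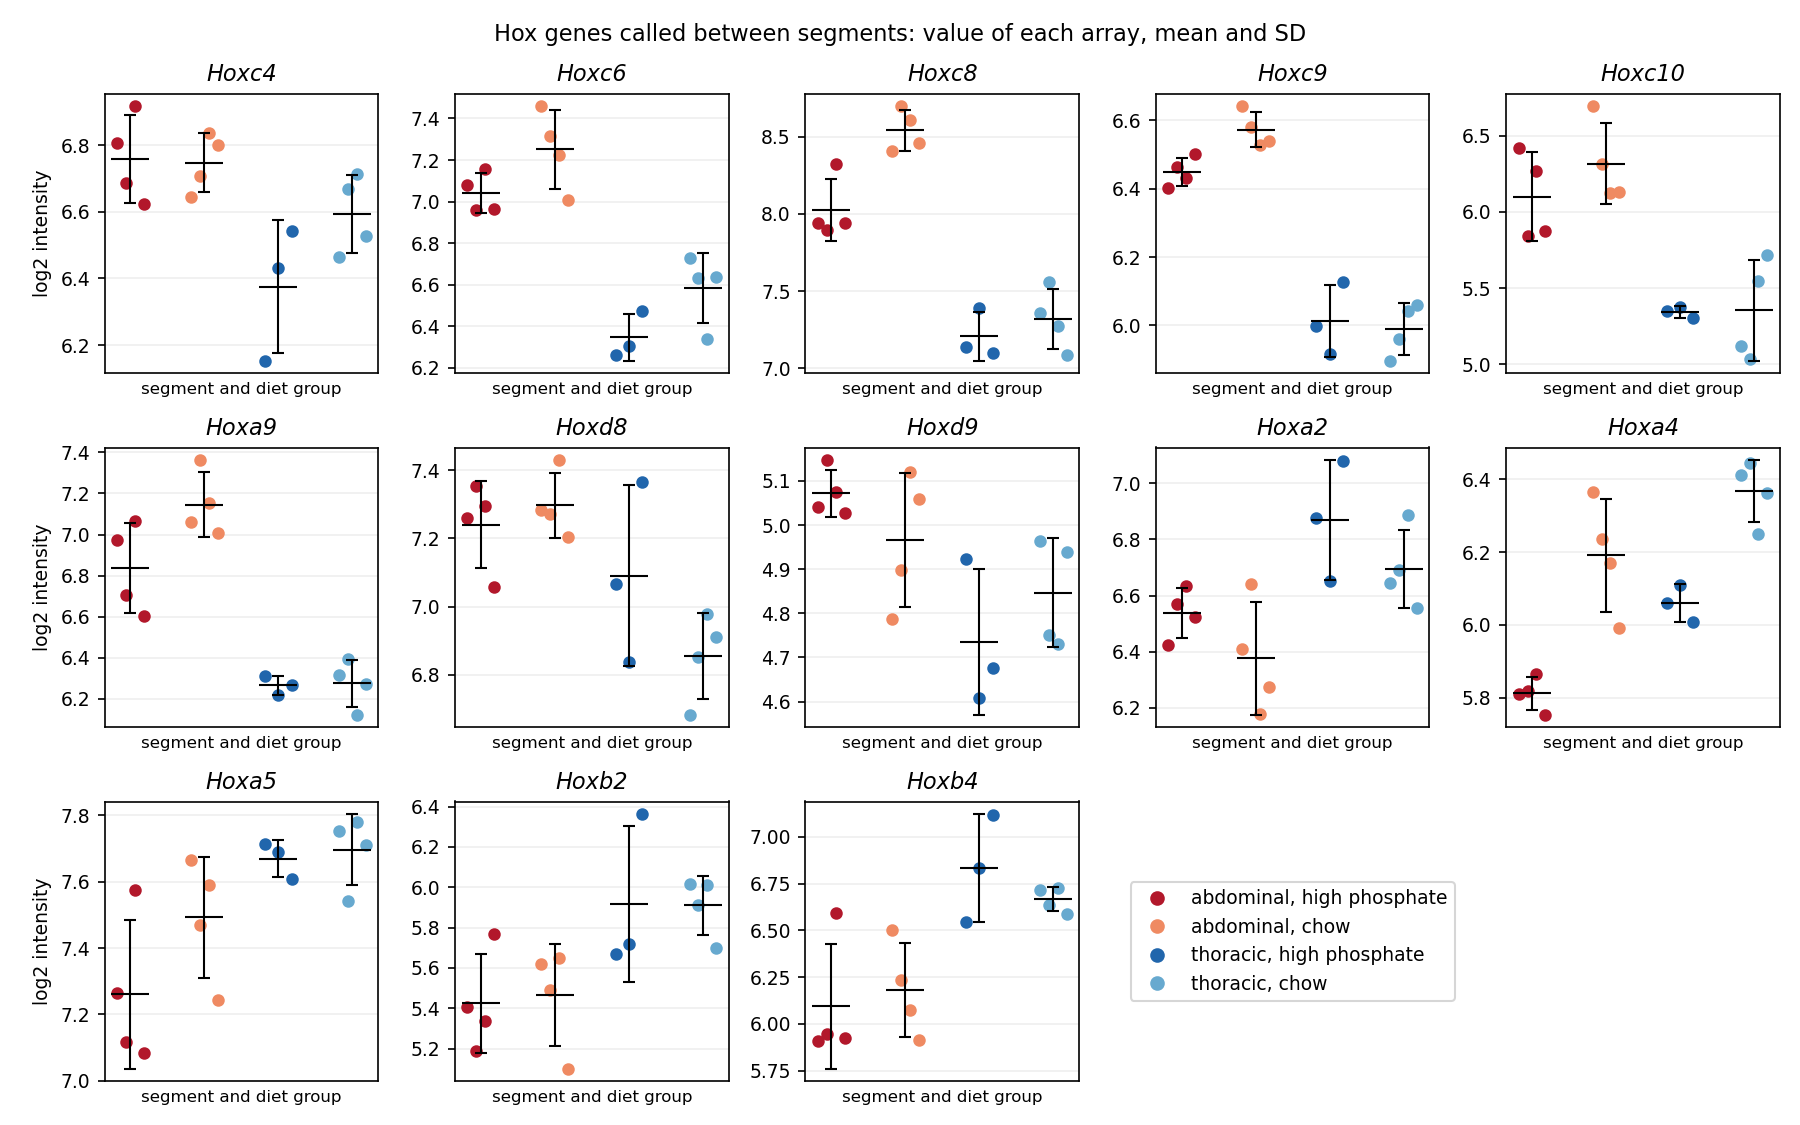
Log2 intensity of the 13 called Hox genes in each array, by segment and diet group, with points for arrays and bars for the group mean ± SD. Hoxc8, Hoxc10, Hoxa9, Hoxc6 and Hoxc9 have every abdominal point above every thoracic point, and the other 8 genes overlap.

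A further 3 genes were higher in abdominal aorta with overlapping arrays. Hoxc4, a central gene of neck and upper trunk patterning, had a lowest, median and highest value of 6.62, 6.76 and 6.92 in the 8 abdominal arrays and of 6.15, 6.53 and 6.72 in the 7 thoracic arrays, a difference of 0.27 (SE 0.0712, limma adjusted p = 0.0146). Hoxd8, a trunk gene studied in lymphatic endothelium, had 7.06, 7.28 and 7.43 in abdominal arrays and 6.68, 6.91 and 7.37 in thoracic arrays, a difference of 0.30 (SE 0.079, limma adjusted p = 0.0152). Hoxd9, a posterior gene of limb and lumbar patterning, had 4.79, 5.05 and 5.15 in abdominal arrays and 4.61, 4.75 and 4.97 in thoracic arrays, a difference of 0.23 (SE 0.0712, limma adjusted p = 0.0327). The call of Hoxd9 was lost without any 1 of 7 arrays, with adjusted p-values up to 0.0868, with the replicate block (0.22, adjusted p = 0.0625) and without the 3 arrays high in hepatocyte markers (0.26, adjusted p = 0.0584). Without the 5 arrays high in T and NK cell markers Hoxc4, Hoxd8 and Hoxd9 were not called, at differences of 0.35, 0.35 and 0.22 and adjusted p-values of 0.1, 0.13 and 0.357.

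Hoxb4 was the gene furthest below 0 among those lower in abdominal aorta. It read 5.91, 5.95, 6.59 and 5.93 in abdominal aorta on HPD and 6.50, 6.24, 6.07 and 5.91 in abdominal aorta on SCD. Thoracic aorta read 6.54, 6.84 and 7.12 on HPD and 6.72, 6.64, 6.73 and 6.59 on SCD. Abdominal HPD array 3 alone overlapped the thoracic range, and the difference was -0.61 (SE 0.12, limma adjusted p = 0.00231), or 1.53-fold lower. RefSeq spans of Hoxb3 and Hoxb4 overlap, so their probe sets may share transcripts.

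Hoxb2, a hindbrain gene that guides facial motor neurons, had a lowest, median and highest value of 5.10, 5.45 and 5.77 in abdominal arrays and of 5.67, 5.91 and 6.36 in thoracic arrays, a difference of -0.47 (SE 0.123, limma adjusted p = 0.0138). Hoxa2, which sets the identity of the second pharyngeal arch, had 6.18, 6.47 and 6.64 in abdominal arrays and 6.56, 6.69 and 7.08 in thoracic arrays, a difference of -0.33 (SE 0.0826, limma adjusted p = 0.0116). For both genes the segments overlapped at their edges. Hoxa5, needed for the lung, trachea and cervical skeleton, had 7.09, 7.37 and 7.67 in abdominal arrays and 7.54, 7.71 and 7.78 in thoracic arrays, a difference of -0.31 (SE 0.0814, limma adjusted p = 0.0146). Its highest abdominal arrays lay within the thoracic range.

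Hoxa4, a gene of neck vertebrae that has been studied in human aortic aneurysm, read 5.81, 5.82, 5.87 and 5.75 in abdominal aorta on HPD and 6.37, 6.24, 6.17 and 5.99 in abdominal aorta on SCD. Thoracic aorta read 6.06, 6.11 and 6.01 on HPD and 6.41, 6.45, 6.25 and 6.36 on SCD. The segments overlapped over both diets, while on HPD every abdominal array lay below every thoracic one. The mean segment difference was -0.21 (SE 0.0596, limma adjusted p = 0.0203). RefSeq spans of Hoxa3 overlap Hoxa4, Hoxa5 and Hoxa6.

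Without the 5 arrays high in T and NK cell markers none of these 5 lower genes was called by limma. The differences were then -0.31 for Hoxb4, -0.43 for Hoxb2, -0.32 for Hoxa2, -0.08 for Hoxa5 and -0.15 for Hoxa4. That fit keeps 1 abdominal HPD array, array 3. It read 6.594 for Hoxb4, against 5.909 to 5.946 in the other arrays of its group. Hoxa4 also missed the threshold without the 3 arrays high in hepatocyte markers (-0.21, adjusted p = 0.063). Smooth muscle, cardiac and mesothelial markers were lower in abdominal aorta beside these genes. So were 6 of 8 brown adipocyte and 4 of 7 fibroblast markers, with median differences of -0.54 and -0.32. On SCD alone 0 of 8 and 0 of 7 were called, with medians of -0.27 and 0.02. On HPD alone 5 and 4 were called, each lower, with medians of -0.805 and -0.504. The brown adipocyte list averaged 7.27 to 9.53 in abdominal and 8.15 to 9.77 in thoracic arrays, and the fibroblast list 8.33 to 9.32 in abdominal and 8.72 to 9.22 in thoracic arrays. The part of these markers in the differences was not tested.

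The other 23 Hox genes were not called between segments. Hoxb7 differed by -0.31 (limma adjusted p = 0.0823) and Hoxa3 by -0.23 (adjusted p = 0.0563). Both were called under some alternatives, Hoxb7 without the 3 arrays high in hepatocyte markers (-0.46, adjusted p = 0.0117) and Hoxa3 without abdominal SCD array 1 (-0.28, adjusted p = 0.00522). The remaining 21 lay between -0.19 for Hoxb3 and 0.19 for Hoxd10. Of these Hoxd10 was called without the 3 arrays high in hepatocyte markers (0.30, adjusted p = 0.028) and with array weights (0.25, adjusted p = 0.048), Hoxb8 without thoracic HPD array 3 (0.26, adjusted p = 0.0492) and Hoxa6 after quantile normalization (-0.15, adjusted p = 0.0432). They include the most posterior genes Hoxa13, Hoxb13, Hoxc13 and Hoxd13, which pattern the tail, limb tips and urogenital tract, at 0.06, -0.12, 0.03 and -0.04. Hoxb5, the member with several probe sets, differed by -0.06 on the brighter one and -0.16 on the other (adjusted p = 0.113).

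Many Hox probe sets were dim. The 95th percentile of the group means of 1390 olfactory and vomeronasal receptor genes, which aorta is not known to use, was 5.86 in abdominal aorta on HPD, 5.87 in abdominal aorta on SCD, 5.99 in thoracic aorta on HPD and 6.06 in thoracic aorta on SCD. The members Hoxa2, Hoxa5, Hoxa6, Hoxa9, Hoxb4, Hoxb5, Hoxb6, Hoxc4, Hoxc6, Hoxc8, Hoxd8 and Hoxd10 were above it in all 4 groups, and 8 of these 12 were called. A further 21 members were above it in no group, among them the called genes Hoxb2 and Hoxd9. Of the remaining 3, Hoxc10 was above it in both abdominal groups and in neither thoracic group, Hoxc9 in all but thoracic aorta on SCD, and Hoxa4 in all but abdominal aorta on HPD. This percentile describes dim probe sets and is not a detection test.

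**Figure D3:**
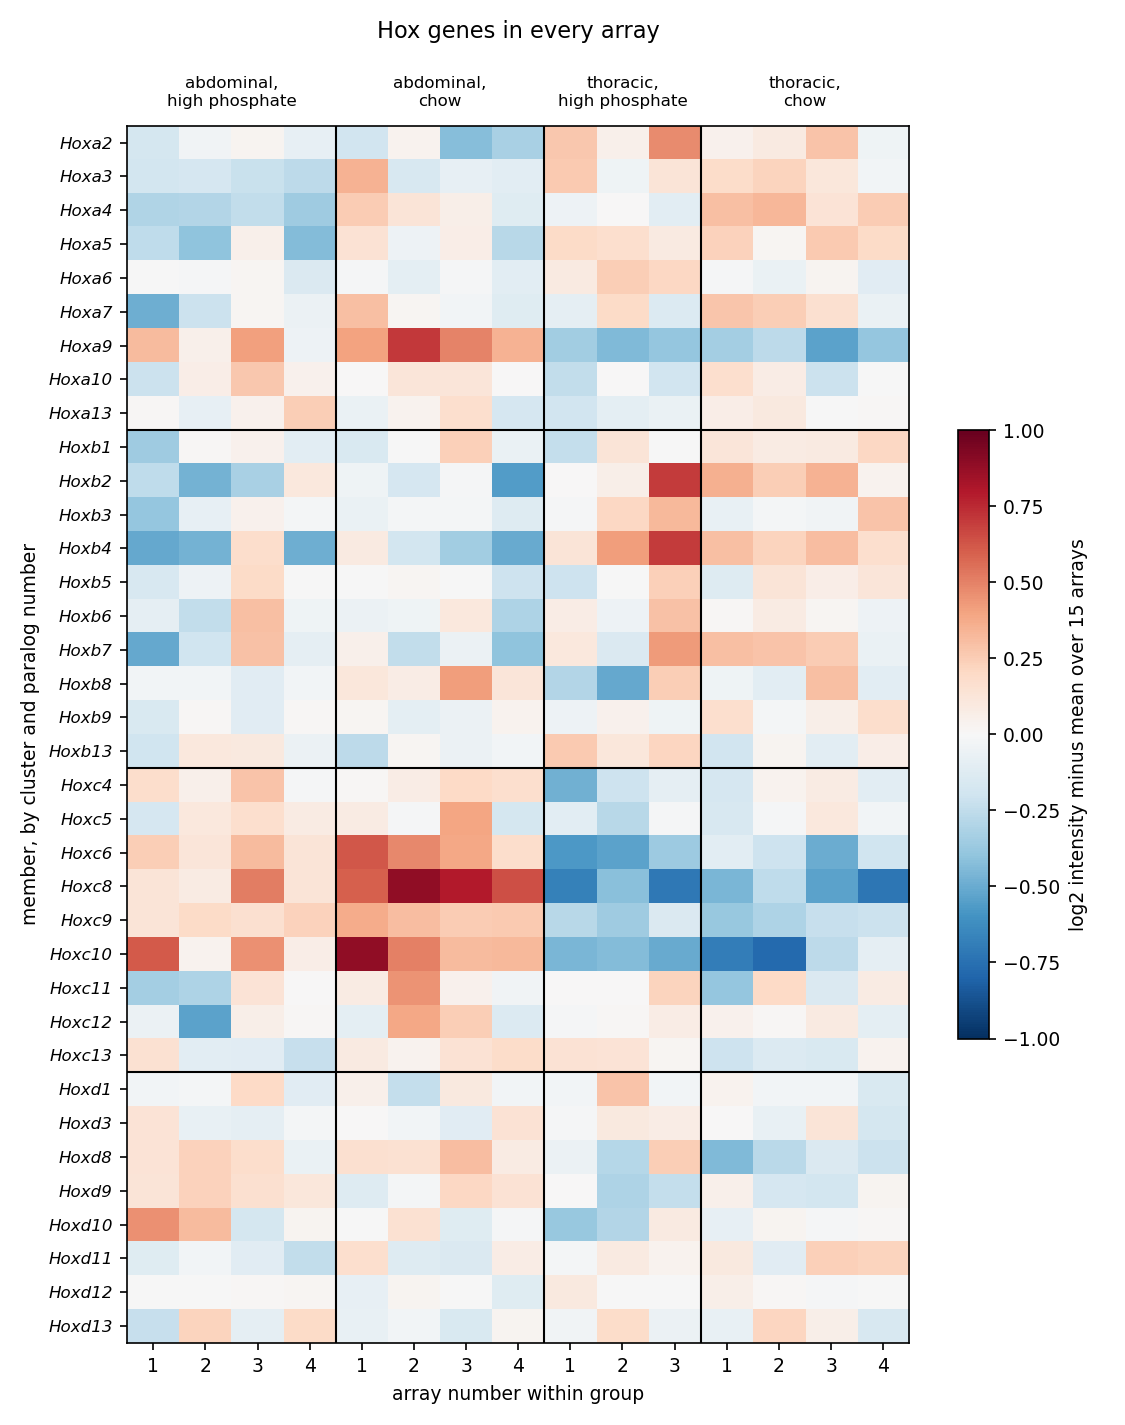
Deviation of each of the 36 Hox genes (rows) from its own mean over the 15 arrays (columns, abdominal groups left of thoracic groups), in log2 units on a colour scale from -1 to 1. The Hoxc6, Hoxc8, Hoxc9, Hoxc10 and Hoxa9 rows are higher in all 8 abdominal columns than in any of the 7 thoracic columns.

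On HPD, 9 of 36 Hox genes differed between segments, 7 higher and 2 lower in abdominal aorta, against 13.8% of all genes (6.25% higher, 7.57% lower). On SCD, 6 of 36 differed, all higher, against 4.78% of all genes (3.02% higher, 1.76% lower). Hoxc8 differed by 0.82 on HPD (SE 0.127, limma adjusted p = 0.00101) and by 1.22 on SCD (SE 0.117, limma adjusted p = 4.13e-05). Hoxc10 differed by 0.76 on HPD and 0.96 on SCD, Hoxa9 by 0.57 and 0.87, Hoxc6 by 0.69 and 0.67, and Hoxc9 by 0.44 and 0.58. The other calls on HPD were Hoxc4 (0.38), Hoxd9 (0.34), Hoxa5 (-0.41) and Hoxb4 (-0.74), and each of these 4 was lost by leaving out some single array. They were 1 of 2 arrays for Hoxc4 (abdominal HPD 1 or thoracic HPD 1), thoracic HPD 3 for Hoxb4, any 1 of 6 arrays for Hoxa5 and any 1 of 8 for Hoxd9.

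The other call on SCD was Hoxd8 at 0.44 (SE 0.107, limma adjusted p = 0.0279), which was lost without any 1 of 5 arrays. The same gene differed by 0.15 on HPD (SE 0.116, limma adjusted p = 0.429). A fit with only the HPD arrays called 5 Hox genes in place of 9, and 3 without the arrays high in T and NK cell markers. The comparisons on HPD and on SCD share no arrays. The sign was the same on both for 30 of 36 Hox genes, beside 73.5% of all genes, and Pearson's r between them was 0.87 across the 36 Hox genes, beside 0.79 across all genes, where genes are not independent.

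In the diet comparison, 2 of 36 Hox genes fell in abdominal aorta on HPD relative to SCD, Hoxa4 and Hoxc8, and 0 rose. Of all genes 7.01% were called there (1.95% risen, 5.06% fallen), so the Hox share was near that of all genes. In thoracic aorta 0 of 36 were called by limma, against 2.47% of all genes (1.39% risen, 1.08% fallen). At an unadjusted p under 0.05 there were 4 members in abdominal aorta, all lower on HPD (Hoxa4, Hoxa9, Hoxc8 and Hoxc13), and 4 in thoracic aorta, 3 higher (Hoxa6, Hoxb13 and Hoxc13) and 1 lower (Hoxa4), against 20% of all genes in abdominal and 13.8% in thoracic aorta. Without abdominal HPD array 3 the abdominal falls of Hoxa5 (-0.34, adjusted p = 0.0426) and Hoxa9 (-0.39, adjusted p = 0.034) were also called. Averaged over the segments Hoxa4 and Hoxc8 were the 2 members called, against 10.7% of all genes (4.53% risen, 6.18% fallen).

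Hoxa4, whose values by array stand above, averaged 5.81 ± 0.046 in abdominal aorta on HPD and 6.19 ± 0.155 on SCD (SD, n = 4 each). Every abdominal HPD array lay below every abdominal SCD array. Its change was -0.38 (SE 0.0809, limma adjusted p = 0.00958), and the abdominal HPD mean lay below the percentile of the receptor genes in that group (5.86). In thoracic aorta it averaged 6.06 ± 0.052 on HPD (SD, n = 3) and 6.37 ± 0.085 on SCD (SD, n = 4), again without overlap, a change of -0.31 (SE 0.0874) that missed the threshold with an adjusted p of 0.0822. With array weights the thoracic fall was called (-0.31, adjusted p = 0.0419). The mean change over both segments was -0.34 (SE 0.0596, limma adjusted p = 0.00134).

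Hoxa4 was the 1 member with all HPD arrays below all SCD arrays in both segments, which held for 2.65% of all genes. No member had all HPD arrays above all SCD arrays in both segments, which held for 1.99% of all genes. Leaving out any single array kept the call of Hoxa4 in abdominal aorta and in the mean of both segments. In abdominal aorta the call was lost without the 3 arrays high in hepatocyte markers (-0.38, adjusted p = 0.0604) and without the 5 arrays high in T and NK cell markers (-0.40, adjusted p = 0.302). The mean change was still called without those 5 arrays (-0.36, adjusted p = 0.039).

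Hoxc8 averaged 8.02 ± 0.201 in abdominal aorta on HPD and 8.54 ± 0.134 on SCD (SD, n = 4 each). The HPD arrays all lay below the SCD arrays, and HPD array 3 was nearest to them. The change was -0.52 (SE 0.117, limma adjusted p = 0.0137), or 1.43-fold lower on HPD. In thoracic aorta it averaged 7.21 ± 0.159 on HPD (SD, n = 3) and 7.32 ± 0.195 on SCD (SD, n = 4), which overlapped, a change of -0.11 (SE 0.127, limma adjusted p = 0.799). The difference between these changes was -0.40, with a 95% interval of -0.77 to -0.04 and an adjusted p of 0.879.

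The abdominal fall of Hoxc8 was lost without abdominal HPD array 2 (adjusted p = 0.0515). It was -0.18 without the 5 arrays high in T and NK cell markers, 3 of which are abdominal HPD arrays and 2 abdominal SCD arrays. The 1 abdominal HPD array left, array 3, read 8.324 for Hoxc8, against 7.892 to 7.942 in the others of its group. Without the 3 arrays high in hepatocyte markers the abdominal fall was -0.63 (adjusted p = 0.00979). The mean change over both segments, -0.31 (SE 0.0863, limma adjusted p = 0.0284), was lost without any 1 of 9 arrays. All 8 brown adipocyte markers and 5 of 7 fibroblast markers fell with the diet in the mean of both segments beside Hoxa4 and Hoxc8, while 1 fibroblast marker rose, and their part in these changes was not tested.

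**Figure D4:**
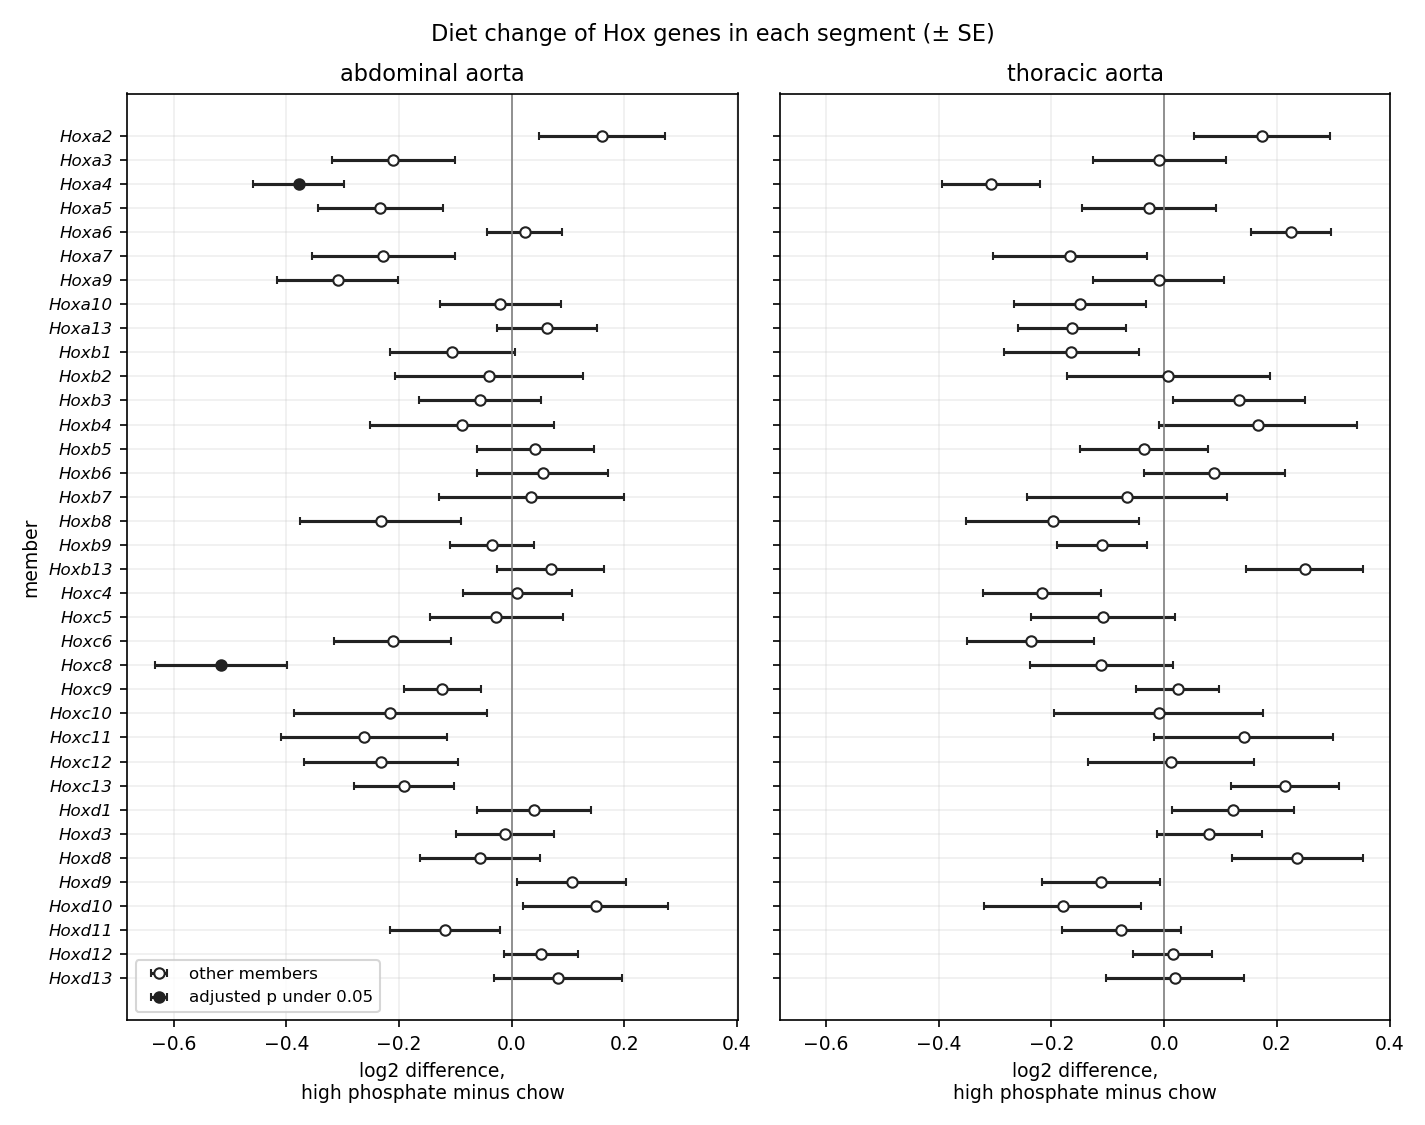
Diet change (HPD minus SCD, log2 scale, bars 1 SE) of the 36 Hox genes in abdominal aorta (left) and thoracic aorta (right), with filled points at an adjusted p under 0.05. The filled points are Hoxa4 (-0.38) and Hoxc8 (-0.52) in abdominal aorta, and no point is filled in thoracic aorta.

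The diet change by segment difference, abdominal minus thoracic, was called by limma for 0 of 36 Hox genes and for 0 genes in all. At an unadjusted p under 0.05 there were 2 members, Hoxc8 and Hoxc13, both below 0, and 5.49% of all genes. For Hoxa4 the difference of the changes was -0.07, with a 95% interval of -0.33 to 0.18. The changes of Hoxa4 and Hoxc8 were therefore not shown to differ between abdominal and thoracic aorta.

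Partners and regulators are read against the 22% of all genes called between segments. Of the Pbx, Meis and Pknox partners, which raise the DNA binding of Hox proteins, 0 of 8 measured were called by limma and 1 had an unadjusted p under 0.05. Meis1 was at 0.17 (adjusted p = 0.122). Of the Cdx and ParaHox genes and the cluster-end genes Evx1 and Evx2, 0 of 8 were called and 0 had an unadjusted p under 0.05. Of the retinoic acid genes, 1 of 11 was called, Crabp1, a cytoplasmic carrier of retinoic acid that was higher in abdominal aorta by 0.80 (SE 0.146, limma adjusted p = 0.00137). Its mean of 5.65 over the 15 arrays lay below the percentile of the receptor genes in each group. Of the Polycomb and Trithorax genes, 2 of 15 were called and higher in abdominal aorta, the Polycomb subunit Suz12 (0.21, adjusted p = 0.00843) and the methyltransferase gene Kmt2a (0.37, adjusted p = 0.0118). Neither Suz12 nor Kmt2a was called without the 5 arrays high in T and NK cell markers, at 0.18 for each (adjusted p = 0.295 and 0.414). Of the genes flanking the clusters 5 of 8 were called, and of other regional transcription factors 9 of 15.

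Of 7 non-coding genes of the clusters, 0 were called by limma in the mean segment difference and 3 had an unadjusted p under 0.05. Mir10b, whose mature sequence is printed above, had a difference of 0.28 that missed the threshold (adjusted p = 0.071), and its mean of 2.52 over the 15 arrays lay below the percentile of the receptor genes given above. Hotair, a long non-coding RNA of the Hoxc cluster, differed by -0.31 on HPD (SE 0.095, limma adjusted p = 0.0419) and by -0.10 in the mean of both diets (adjusted p = 0.289), and the HPD call was lost in 13 of 26 alternatives, among them 8 of 15 that left out 1 array, the replicate block and the fit without the 5 arrays high in T and NK cell markers (adjusted p = 0.458). Mir196a-1, Mir196a-2 and Mir615 differed by -0.08, 0.08 and -0.03. The means of Hotair, Mir196a-1, Mir196a-2 and Mir615 over the 15 arrays (5.17, 5.643, 5.302 and 4.035) also lay below that percentile. Probe sets of microRNA genes may read the precursor or host transcript and not the mature microRNA.

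**Figure D5:**
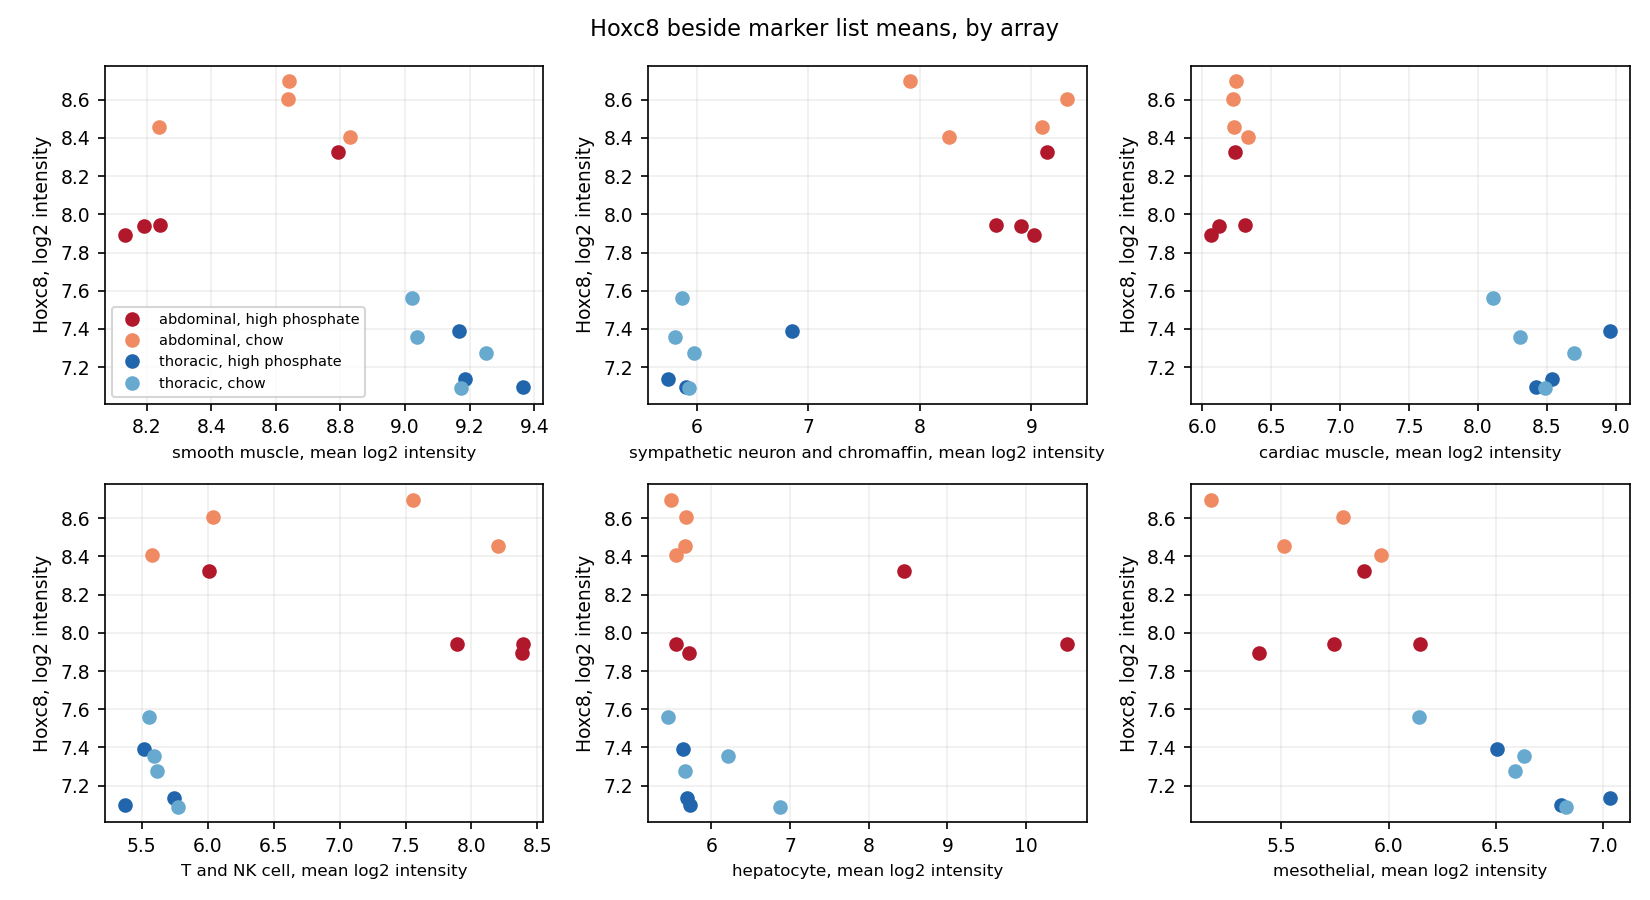
Hoxc8 log2 intensity by array against the mean log2 intensity of 6 cell type marker lists, with abdominal and thoracic arrays marked. Hoxc8 is at 7.89 to 8.70 in abdominal arrays and 7.09 to 7.56 in thoracic arrays, and the sympathetic, cardiac and smooth muscle list means also separate the segments.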

How the data were processed

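The authors deposited 1 value per probe set and array, taken here as log2 intensity. RMA and Partek are named, without version or role, in the submitters' processing notes, RNA was labelled with NuGEN kits per the labels, and the log base was taken from their range. Signal over background and scan dates are unknown, and precision is limited by how many arrays there are. Of 41345 probe sets, 23521 name exactly 1 gene symbol in the platform annotation, and the brightest per gene gave 22180 genes, unfiltered. 7 probe sets that name a Hox gene with another gene were not used.

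A model of 4 group means was fitted to 15 arrays by lmFit and trended eBayes of limma 3.58.1 (R 4.3.3, two-sided tests), with 11 residual degrees of freedom, and was tested on simulated data. The prior had 3.901 degrees of freedom. P-values were adjusted over all genes, treat arrays as independent and measure the spread between these arrays. Further software was Python 3.11.15, pandas 2.3.3, matplotlib 3.10.9 and, in R, the data.table package, version 1.17.8. Any Hox member could be named, and of the lists of regulators and markers at most those called or the 4 with the smallest p. Exceptions were Evx2, named to describe its list, and Mir196a-1, Mir196a-2 and Mir615, whose mature sequences are printed. Full statistics went to called members with the largest segment differences. Members, lists and alternatives were chosen with earlier results of these data known. The alternatives were another variance prior, a filter on dim genes, quantile normalization, median centring, an average over all probe sets of each gene, only the groups compared, array weights, a replicate block, other thresholds and arrays left out. Arrays of different groups with the same replicate number had deviations correlated at -0.25 to 0.404 (median 0.046). Those with different numbers were at -0.52 to 0.419 (median -0.014). Both sets include pairs across diets, which cannot share a mouse. Abdominal and thoracic arrays with the same number were at 0.122, 0.079 and 0.031 within HPD. Within SCD they were at 0.046, 0.03, 0.069 and 0.048. Abdominal and thoracic arrays of the same diet with different numbers were at -0.151 to 0.141. Whether numbers mark mice is not known, and they were not treated as pairs.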

Additional observations from a re-analysis of the deposited data

Results flagged for a closer look

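In 9 of 108 checks of a Hox gene in a group of 4 arrays, 1 array stood apart from the other 3. Chance alone sets an array apart in about 1 in 20 groups, and groups of 3 were not checked. In abdominal aorta on HPD, array 3 was the one apart in each case. It read 6.594 for Hoxb4, against 5.909 to 5.946 in the others, 8.324 for Hoxc8, against 7.892 to 7.942, and 3.836 for Hoxb8, against 3.921 in each of the others. This array was high in hepatocyte markers and was the 1 array of its group without high T and NK cell markers, and the part of either in these values was not tested. In abdominal aorta on SCD, array 1 read 5.753 for Hoxa3, against 5.24 to 5.319, array 4 read 5.976 for Hoxb5, against 6.177 to 6.203, and array 3 read 4.369 for Hoxb8, against 4.029 to 4.07. In thoracic aorta on SCD, array 4 read 6.049 for Hoxb3, against 5.691 to 5.751, and 5.443 for Hoxb7, against 5.758 to 5.812, and array 3 read 4.25 for Hoxb8, against 3.843 to 3.908.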

How the results depend on the processing

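The 32 called results of single Hox genes gave 847 values under the alternatives, of which 757 kept their call, 90 lost it and 0 changed sign. Some of these outcomes were fixed in advance. The other thresholds, the other variance prior, the filter on dim genes and the fit of only the groups compared reuse the main differences. No sign could change under these. Leaving out an array of a group outside a comparison also leaves its differences as they were. An adjusted p under 0.1 could lose no call. The average over probe sets alters the values of 1 member, Hoxb5, which was not called. Without the 5 arrays high in T and NK cell markers, which leaves 1 abdominal HPD array whose spread is assumed to be that of the others, Hox calls were 5 for the mean segment difference in place of 13, 3 on HPD in place of 9, 0 for the abdominal diet change in place of 2 and 1 for the mean diet change in place of 2. Over all genes this setting gave 1247 for the mean segment difference in place of 4880, 466 on HPD in place of 3067, 496 on SCD in place of 1061, 137 for the abdominal diet change in place of 1554, 1029 for the mean diet change in place of 2376 and 43 for the diet change by segment difference in place of 0, and the mean segment difference of Skap1 reversed to -0.035. Fewer arrays enter these fits and some differences changed in size, and the cause of the changed counts was not tested. Without the 3 arrays high in hepatocyte markers 1 Hox gene was called for the abdominal diet change, and over all genes 675 on SCD and 286 for the thoracic diet change in place of 548. With only the groups compared they were 5 Hox genes on HPD and 1026 genes for the abdominal diet change. Array weights gave 1 Hox gene and 907 genes for the thoracic diet change. An adjusted p under 0.1 gave 14 Hox genes on HPD, 1795 genes on SCD, and 1 Hox gene and 992 genes for the thoracic diet change. An unadjusted p under 0.05 with 1.5-fold change gave 5 Hox genes and 1256 genes for the mean segment difference, 4 and 1842 on HPD, 0 and 812 for the abdominal diet change, 0 and 522 for the mean diet change, and 256 genes for the diet change by segment difference. Leaving out single arrays gave 12 to 14 Hox genes and 3775 to 5529 genes for the mean segment difference, 6 to 10 and 1695 to 4025 on HPD, 5 to 7 and 500 to 1369 on SCD, 1 to 4 and 891 to 2249 for the abdominal diet change, 0 to 0 and 209 to 605 for the thoracic diet change, 1 to 3 and 1957 to 2731 for the mean diet change, and 0 to 0 and 0 to 1 for the diet change by segment difference. With the replicate block 12 Hox genes were called for the mean segment difference and 8 on HPD, in both cases without Hoxd9 (adjusted p = 0.0625 and 0.0915), and 6 on SCD, 2, 0 and 2 for the abdominal, thoracic and mean diet changes and 0 for the diet change by segment difference. Dim probe sets and 3 or 4 arrays per group limit small differences.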

Other observations

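Genes just outside the Hox clusters also differed between segments, 2 higher and 3 lower in abdominal aorta of 8 measured. Of all genes 22% were called, 10.3% higher and 11.7% lower. Skap2, next to the Hoxa cluster, was lower, with a difference of -0.32 on the log2 scale (SE 0.0461, limma adjusted p = 0.000206), and Hibadh on the same side differed by -0.26 (adjusted p = 0.0216), or -0.13 (adjusted p = 0.529) without the 5 arrays high in T and NK cell markers. Skap1, a T cell adaptor gene near the Hoxb cluster, was higher by 0.91 (SE 0.297, limma adjusted p = 0.0391). It read 6.76 to 7.67 in the 5 arrays high in T and NK cell markers and at most 6.03 in all others, and its call was lost without those 5 and without any 1 of 12 of the 15 arrays (adjusted p up to 0.0796). The other segment calls were Lnpk (0.25, limma adjusted p = 0.0254) and Calcoco1 (-0.16, adjusted p = 0.042). The call of Lnpk was lost without any 1 of 3 arrays and that of Calcoco1 without any 1 of 10. Mtx2, next to the Hoxd cluster, fell on HPD by 0.60 in the mean of both segments (SE 0.0895, limma adjusted p = 0.000418).

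Of 15 other regional transcription factors measured, 3 were higher and 6 lower in abdominal aorta. Isl1 and Hand2, which also act in sympathetic neurons, were higher by 1.49 (SE 0.18, limma adjusted p = 4.86e-05) and 1.63 (SE 0.202, limma adjusted p = 6.3e-05), and Tbx20 by 0.64 (adjusted p = 0.0271). Tbx5, a gene of heart and forelimb, differed by -0.78 (SE 0.0932, limma adjusted p = 4.62e-05) and Osr1 by -0.95 (SE 0.136, limma adjusted p = 0.000221). Tbx18 and Wt1, genes of the epicardium and mesothelium, differed by -0.54 and -0.47, Gata6 by -0.36 and Gata5 by -0.23. These last 4 were not called without the 5 arrays high in T and NK cell markers (adjusted p from 0.0929 to 0.609), and Tbx20 was not without the 3 high in hepatocyte markers (adjusted p = 0.0798). Sympathetic and chromaffin markers were higher and cardiac and mesothelial markers lower in abdominal aorta beside them, and their part was not tested. The means of Tbx5 (5.546) and Gata5 (5.233) over all arrays lay below the percentile of the receptor genes in each group. Polycomb genes Ezh1 and Cbx7 were higher on HPD in the mean of both segments, by 0.32 (adjusted p = 0.00241) and 0.33 (adjusted p = 0.00214), the call of Cbx7 being lost without the 5 arrays (adjusted p = 0.0904). The sets of adrenal cortex, kidney and endothelial markers had 0 of 7 members each called between segments by limma, of which 0 in adrenal cortex, 2 in kidney and 1 in endothelium had an unadjusted p under 0.05. The adrenal cortex list nevertheless averaged 5.819 in abdominal HPD array 2, against 4.963 to 5.261 in all other arrays. Its part in the Hox values of that array was not tested.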
